A study of Mus musculus with 6 samples.

Results

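The carboxylesterase genes of the Ces1, Ces2 and Ces3 families were examined in livers of mice given vehicle or esculetin, a coumarin derivative. The members were the 10 genes Ces1b, Ces1c, Ces1d, Ces1e, Ces1f, Ces1g, Ces2a, Ces2e, Ces3a and Ces3b, out of 55357 gene identifiers counted. They were found by matching Ensembl identifiers to the GENCODE annotation of GRCm39. The family was chosen by the difference of Ces1g between the esculetin and vehicle libraries analysed here, so the values of Ces1g are given as a description without a p-value, and nothing is read from how many members changed.

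Liver RNA came from male wild-type C57BL6/J mice aged 8 to 9 weeks. Mice received 2.5% Tween-80 alone (vehicle) or esculetin by oral gavage for 7 days. All of them ate a control diet with 10% of kcal from fat for 4 days and then a high-fat diet (HFD) with 60% of kcal from fat for 3 days, so the vehicle group also carries the high-fat feeding and no group kept on the control diet enters the comparison. Each group had 3 libraries, and each library pooled the livers of 2 mice, which hides the spread between single animals. The sample names put the dose at 180 mg/kg/d while the treatment field says 90 mg/kg/d, so no dose is attached to the esculetin group below. Total counts lay between 27957713 and 34920922, with the 3 esculetin libraries the deepest. Levels are given as CPM, counts divided by the library's total after TMM scaling. A count of 3 equals 0.0859 to 0.107 CPM, far below the level of any member.

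Carboxylesterases are serine hydrolases of the endoplasmic reticulum that cleave ester, amide and thioester bonds in drugs and in lipids. The liver is their main site, and they are counted among the phase I enzymes of drug metabolism. Several of them also hydrolyse stored triacylglycerol or cholesteryl ester, which feeds the assembly of very-low-density lipoprotein (VLDL). Rodents carry many neighbouring copies where humans have few, so mouse genes have no simple partner in the human family.

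All 10 members lie on chromosome 8 in 2 blocks (GRCm39). The Ces1 block spans chr8:93746842-94262458, or 516 kb, on the minus strand and holds 9 protein-coding genes, all of them carboxylesterases. Within it lie Ces1b (chr8:93780578-93806709), Ces1c (chr8:93825643-93857942), Ces1d (chr8:93892693-93924466), Ces1e (chr8:93927846-93956247), Ces1f (chr8:93981999-94006375) and Ces1g (chr8:94028683-94063953). The block of Ces2, Ces3 and Ces4a spans chr8:105460630-105876741, or 416 kb, on the plus strand and holds 10 protein-coding genes, again all carboxylesterases. It contains Ces2a (chr8:105460630-105468266), Ces2e (chr8:105652848-105661304), Ces3a (chr8:105775223-105789243) and Ces3b (chr8:105810253-105820561). Ces1g is annotated with 14 exons and a coding sequence of 1698 bases.

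The stretch of coding sequence around the active-site serine shows how close the members are to each other. The 60 coding bases of Ces1g are printed beside those of 5 members, to show near and distant relatives. Capitals mark bases that differ from Ces1g, and the serine codon is at bases 28 to 30 of each line.
Ces1g: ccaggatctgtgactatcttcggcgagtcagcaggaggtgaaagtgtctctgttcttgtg
Ces1e: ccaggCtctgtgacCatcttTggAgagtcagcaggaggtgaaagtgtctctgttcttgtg
Ces1d: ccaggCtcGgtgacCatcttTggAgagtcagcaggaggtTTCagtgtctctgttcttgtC
Ces1c: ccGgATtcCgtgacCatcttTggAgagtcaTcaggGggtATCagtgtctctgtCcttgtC
Ces2a: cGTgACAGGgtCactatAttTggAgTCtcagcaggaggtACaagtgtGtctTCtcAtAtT
Ces3a: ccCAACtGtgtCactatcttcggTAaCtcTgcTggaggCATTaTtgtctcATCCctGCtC
Ces1e differed from Ces1g at 4 of these 60 bases, Ces1d at 9, Ces1c at 14, Ces2a at 21 and Ces3a at 23. The serine codon was tca in every Ces1 and Ces2 member and tct in Ces3a and Ces3b.

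In most carboxylesterases the last codons encode the signal that holds the protein in the endoplasmic reticulum, and Ces1c is known as the carboxylesterase of mouse plasma. The last 30 coding bases are shown with the 4 codons before the stop codon in capitals.
Ces1g: tcatcccatagggaaCATGTTGAACTGtga
Ces1d: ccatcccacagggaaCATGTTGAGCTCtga
Ces1b: gaccctactgagcacAGAGAACACAAAtga
Ces1c: gaccctactgaacacACAGAACACAAAtga
Ces2e: gggtctcaggagaggCACAAAGAGTTGtag
Ces3a: agaagcaggaaagttCCAGAGGAGCTCtga
The marked codons are nearly alike in Ces1b and Ces1c, and nearly alike in Ces1g and Ces1d.

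Over whole coding sequences, pairs within Ces1 were 72.1% to 90.9% identical, with a median of 77.3% over 15 pairs. Ces1b and Ces1c were the closest Ces1 pair at 90.9%, and Ces1g was closest to Ces1d at 81.6%. Ces2a and Ces2e were 83.3% identical, Ces3a and Ces3b 95.3%, and members of different families 52.1% to 56.2%. This bears on the counts, since reads that fit several genes could be divided or dropped. Ces1g shared no stretch of 150 bases, the length of a read, with any other annotated transcript in 2570 positions tried, and its longest shared run was 74 bases, with Ces1e. Ces3a and Ces3b shared a run of 194 bases, which made 45 of the 1907 windows of 150 bases in Ces3a identical between them. Ces2a shared a run of 220 bases with the predicted gene Gm63300, in 73 of its 1819 windows. The other members shared no 150-base window. How reads that map to several genes were counted is not given in the sources used here, so the split between Ces3a and Ces3b, and the value of Ces2a, are less certain than that of Ces1g. Ces3b also has 433 bases of exon in common with a long noncoding RNA on the opposite strand, Gm63991, and the strand setting of the counting is likewise not given.

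Ces1g was higher in every esculetin library than in every vehicle library. Its normalised level was 138.7, 125.4 and 130.0 CPM in vehicle libraries 1, 2 and 3. In esculetin libraries 1, 2 and 3 it was 243.8, 223.0 and 228.2 CPM. The groups stood clear of each other, and libraries of a group lay close together. The mean went from 131 ± 6.74 CPM (SD, n = 3) to 232 ± 10.9 CPM (SD, n = 3), a log2 fold change of 0.82 with a standard error of 0.077, or 1.76-fold. The raw counts behind these values were between 3565 and 7843 per library. Leaving out each library in turn kept the log2 fold change between 0.78 and 0.86. Ces1g encodes a liver lipid hydrolase whose loss in mice is known to raise circulating and hepatic lipid. In RNA from whole liver, fewer cells of a type and less RNA per cell cannot be told apart.

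**Figure D1:**
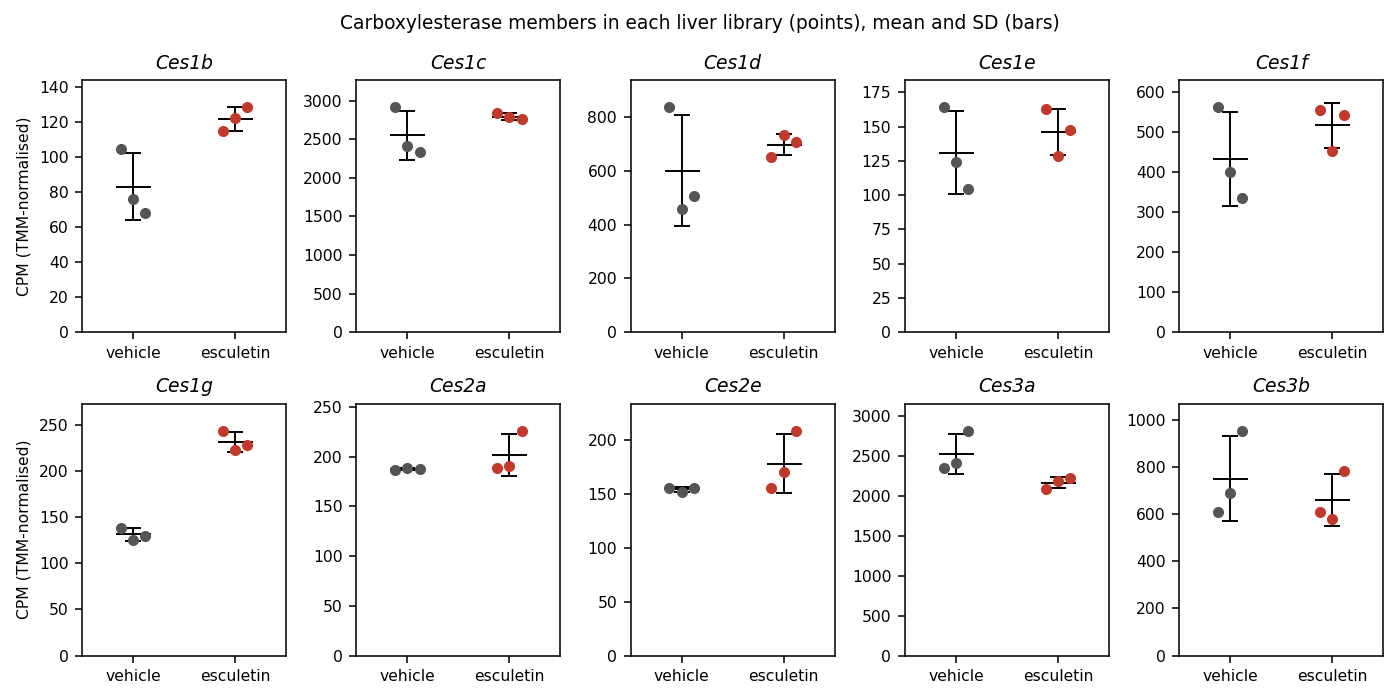
Normalised level (CPM, TMM-normalised, axes from 0) of the 10 members in each library, with 1 panel per gene. Points are libraries, the long bar is the group mean and the whiskers are the SD (n = 3); the vehicle points of Ces1g lie between 125.4 and 138.7 CPM and its esculetin points between 223.0 and 243.8 CPM, whereas the first vehicle point of Ces1b, Ces1d, Ces1e and Ces1f stands above the other vehicle points.

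Ces1g also took a larger share of the Ces1 family. Of all reads counted for the 6 Ces1 members, Ces1g held 2.94%, 3.49% and 3.74% in the vehicle libraries. It held 5.34%, 5.02% and 5.06% in the esculetin libraries. The shares did not overlap, with means of 3.39% ± 0.41 and 5.14% ± 0.17 (SD, n = 3 each). This ratio within a library does not depend on the scaling between libraries, and it rests on the same counts that chose Ces1g.

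Vehicle library 1 stood apart in the Ces1 family and has to be kept in mind for its other 5 members. All 6 Ces1 members were higher in it than the mean of the other vehicle libraries, by a median of 0.53 on the log2 scale. The largest such gap was 0.79, for Ces1d. The smallest was 0.12, for Ces1g. In vehicle libraries 2 and 3, 0 of 6 Ces1 members were above the rest of their group. That rest includes vehicle library 1, so this count largely follows from the height of that library. The esculetin libraries showed 4, 2 and 4 of 6 above the rest, with medians between -0.04 and 0.07. The summed markers of hepatocytes spanned 76508 to 79956 CPM in the vehicle libraries and 74790 to 80994 CPM in the esculetin libraries. The periportal sum spanned 6765 to 7165 CPM with vehicle and 7241 to 8168 CPM with esculetin, without overlap. The pericentral sum spanned 10511 to 11656 CPM with vehicle and 11320 to 13098 CPM with esculetin, which overlap. None of the 18 hepatocyte, pericentral and periportal markers passed the thresholds. The part of the zonal markers in the values of the members was not tested. What set vehicle library 1 apart was not tested.

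The 14433 genes with enough counts were compared with edgeR's quasi-likelihood test. A gene was called when it passed the study's thresholds, a fold change above 1.5 together with a p-value below 0.05 (taken here without adjustment), and 3.13% of all genes tested were called. All 10 members had enough counts. Ces1g is left out of the counts that follow, since its difference chose the family, and 0 of the other 9 were called. With the fold threshold dropped, 2 of these 9 passed (Ces1b and Ces3a), where 11.9% of all genes did. After Benjamini-Hochberg adjustment over all genes tested, 0 of the 9 passed, where 0.0416% of all genes did (all of them higher with esculetin), and the smallest adjusted p-value of the 9 was 0.203 by edgeR, that of Ces1b. DESeq2 and limma, each run with all 6 libraries, also called 0 of the 9, because Ces1b stayed under the fold threshold. Its adjusted p-value was 0.0129 by DESeq2 and 0.175 by limma-voom, and it was 4.84e-05 by edgeR without the count filter. The median log2 fold change of the 9 was 0.16 and that of all genes tested was -0.01.

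Ces1b was the member nearest to the thresholds after Ces1g. It measured 104.7, 76.3 and 68.3 CPM in the vehicle libraries, and 114.8, 122.4 and 128.4 CPM in the esculetin libraries. The libraries of the groups did not overlap, although vehicle library 1 came near the lowest esculetin library. Its log2 fold change was 0.55 with a standard error of 0.14, or 1.47-fold, with an adjusted p-value of 0.203 by edgeR. Without vehicle library 1 it was 0.75, without esculetin library 1 it was 0.59, and in both cases Ces1b passed the thresholds. Without vehicle library 3 it was 0.43 and did not pass. Ces1b has the lowest level per length of all members and its substrates are little described.

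Ces1c, the plasma carboxylesterase that also splits many ester drugs, was the most abundant member per kilobase of annotated exon. In CPM, Ces3a came near it with vehicle, at a mean of 2526 against 2550, and exceeded it in vehicle libraries 2 and 3. Ces1c measured 2913, 2407 and 2332 CPM in the vehicle libraries. In the esculetin libraries it measured 2840, 2784 and 2755 CPM, all inside the vehicle range. The log2 fold change was 0.13 with a standard error of 0.097 (adjusted p = 0.641, edgeR), and it was 0.24 without vehicle library 1 and 0.07 without vehicle library 3. Spread among libraries was wider in the vehicle group, with a coefficient of variation of 12.4% against 1.54% in the esculetin group.

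Ces1d, the enzyme known as triacylglycerol hydrolase, was the most variable member among vehicle libraries. It measured 836.8, 458.9 and 507.2 CPM with vehicle, against 653.5, 733.2 and 707.5 CPM with esculetin. The 3 esculetin values lay inside the vehicle range. The log2 fold change was 0.22 with a standard error of 0.19 (adjusted p = 0.705, edgeR). It became 0.53, 0.06 and 0.11 without vehicle library 1, 2 and 3, and it was not called in any of these cases.

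Ces1f, another lipid hydrolase of the hepatocyte, and Ces1e, known as egasyn for binding beta-glucuronidase in the endoplasmic reticulum, overlapped between the groups. Ces1f measured 561.6, 400.6 and 334.7 CPM with vehicle and 555.4, 452.5 and 541.9 CPM with esculetin. Ces1e measured 164.1, 124.1 and 104.6 CPM with vehicle and 162.5, 128.7 and 147.2 CPM with esculetin. In both genes vehicle library 1 was the highest of all 6. The log2 fold changes were 0.26 (SE 0.17, adjusted p = 0.591) for Ces1f and 0.16 (SE 0.15, adjusted p = 0.732) for Ces1e by edgeR. Without vehicle library 1 they were 0.49 and 0.35, and without vehicle library 3 they were 0.10 and 0.02.

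The Ces2 enzymes prefer esters with a small acyl group and a large alcohol group. Ces2a was nearly constant among vehicle libraries, at 186.8, 188.3 and 187.3 CPM, a coefficient of variation of 0.42%. In the esculetin libraries it was 188.7, 190.6 and 226.2 CPM, so the groups did not overlap, but 188.3 and 188.7 CPM are next to each other. Ces2e measured 155.4, 152.0 and 156.1 CPM with vehicle and 155.4, 170.8 and 209.0 CPM with esculetin, which overlap. Esculetin library 3 was the highest for both genes. The log2 fold changes were 0.11 (SE 0.087, adjusted p = 0.675) for Ces2a and 0.21 (SE 0.11, adjusted p = 0.482) for Ces2e by edgeR, and without esculetin library 3 they were 0.02 and 0.08.

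Both Ces3 genes had negative log2 fold changes. Ces3a was the second most abundant member per kilobase of annotated exon. It measured 2345, 2416 and 2817 CPM in the vehicle libraries and 2091, 2185 and 2220 CPM in the esculetin libraries. The groups did not overlap, with every esculetin library below every vehicle library. Its log2 fold change was -0.22 with a standard error of 0.090, or 1.17-fold lower, at an unadjusted p-value of 0.0343 and an adjusted p-value of 0.376 by edgeR. Without vehicle library 3 the log2 fold change was -0.13 at an unadjusted p-value of 0.141 (edgeR). Without esculetin library 1, 2 or 3 it was -0.20, -0.23 or -0.24, at unadjusted p-values of 0.0932, 0.0631 or 0.0545 (edgeR). Without vehicle library 1 or 2 it was -0.27 or -0.25, at unadjusted p-values of 0.0159 or 0.0452 (edgeR). Ces3b measured 608.1, 689.1 and 952.8 CPM with vehicle and 607.7, 580.1 and 783.2 CPM with esculetin. These ranges overlap, and replicate 3 was the highest library in either group. The log2 fold change of Ces3b was -0.19 with a standard error of 0.17 (adjusted p = 0.702, edgeR), and it turned to 0.02 without vehicle library 3.

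Among the 9 members other than Ces1g, the libraries of the groups did not overlap in 3. Ces1b and Ces2a were higher and Ces3a was lower with esculetin. Among all genes tested, 17.4% did not overlap, 9.2% of them on the higher and 8.24% on the lower side as shares of all genes.

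**Figure D2:**
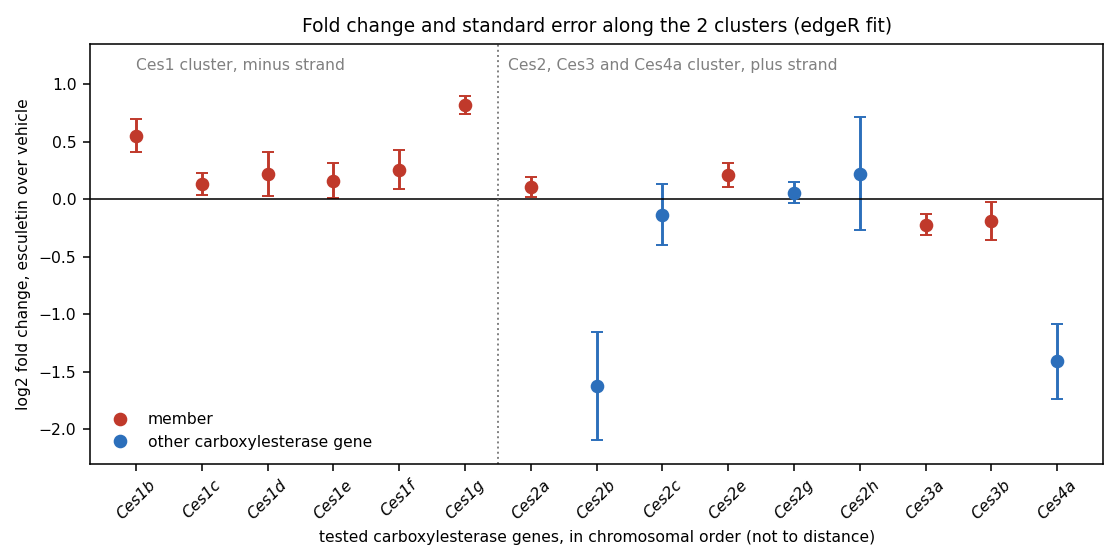
Log2 fold change of esculetin over vehicle (y axis; whiskers are the standard error of the edgeR fit) for the 15 tested carboxylesterase genes, in their order along chromosome 8 but not to distance. Red points are members and blue points are other carboxylesterase genes; the 6 Ces1 members lie above 0, Ces3a and Ces3b lie below 0, and Ces2b and Ces4a lie lowest at -1.62 and -1.41.

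Summing the counts of a family removes any exchange of reads between its members. The Ces1 sum was 4719, 3592 and 3476 CPM in the vehicle libraries and 4570, 4444 and 4509 CPM in the esculetin libraries. The esculetin values were nearly equal and fell inside the vehicle range, because vehicle library 1 was the highest of all. The log2 fold change of the sum was 0.20 with a standard error of 0.12, 0.35 without vehicle library 1 and 0.12 without vehicle library 3. The Ces2 sum was 342.2, 340.4 and 343.4 CPM with vehicle and 344.1, 361.5 and 435.2 CPM with esculetin, a log2 fold change of 0.15 (SE 0.095) that fell to 0.05 without esculetin library 3. The Ces3 sum was 2953, 3105 and 3770 CPM with vehicle and 2699, 2765 and 3003 CPM with esculetin. Its log2 fold change was -0.21 (SE 0.10), and -0.10 without vehicle library 3. The Ces1 sum holds Ces1g, so no p-value is given for the sums.

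Together the 10 members took 0.760% ± 0.051 of all counts in vehicle libraries and 0.765% ± 0.029 in esculetin libraries (SD, n = 3 each), and the 2 ranges overlapped.

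Levels of different genes were compared as CPM per kilobase of annotated exon. In vehicle libraries the order was Ces1c at 970 ± 120, Ces3a at 453 ± 45.7, Ces3b at 191 ± 45.8, Ces1d at 117 ± 40.1 and Ces1f at 102 ± 27.4 (SD, n = 3). Below these came Ces2a at 62.8 ± 0.26, Ces2e at 56.3 ± 0.79, Ces1g at 47.3 ± 2.42, Ces1e at 41.7 ± 9.66 and Ces1b at 16.8 ± 3.87. Libraries of neighbours overlapped between Ces3b and Ces1d, between Ces1d and Ces1f, and between Ces1g and Ces1e, so those neighbours did not differ beyond their spread. Ces1c and Ces3a together held 69.2% of the summed level of the members in vehicle libraries and 67.1% in esculetin libraries. The gap between them depends on the length used. Ces3a has 5576 bases of annotated exon and 2056 in its canonical transcript, against 2628 and 1871 for Ces1c.

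In esculetin libraries 3 members had another rank. Ces1g, at 83.4 ± 3.91 CPM per kilobase, moved from rank 8 to rank 6, above Ces2a at 67.6 ± 7.07 and Ces2e at 65.0 ± 10.1, and its libraries did not overlap those of Ces2a or of Ces1f above it. Ces2a and Ces2e each stood 1 place lower and overlapped each other. The other 7 members kept their rank, from Ces1c at 1063 ± 16.3 to Ces1b at 24.7 ± 1.38. The order depends on the length used: with the longest annotated transcript in place of all exons, 6 of 10 members kept their rank in each group. Ces1d, Ces1f and Ces1g moved in both groups, and Ces1g then ranked 9 with vehicle and 7 with esculetin, below Ces2a.

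**Figure D3:**
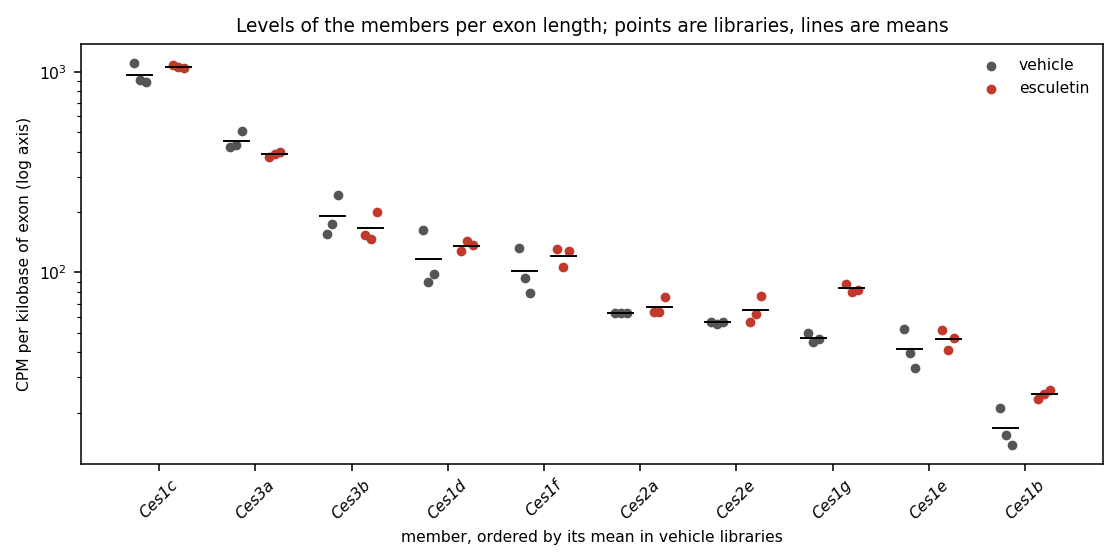
Level of each member per exon length (y axis: CPM per kilobase, log axis) in the vehicle and esculetin libraries, ordered from left to right by the vehicle mean. Points are libraries and lines are group means (n = 3); Ces1c leads in both groups at 970 and 1063, and Ces1g moves from 47.3 to 83.4, past Ces2a and Ces2e.

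The family's remaining genes were read as a separate list of 11, chosen with earlier results of these data known. The table held 10 of them, and 5 had enough counts for the test. Ces1a had 41 reads over all 6 libraries, Ces2d-ps had 20, Ces1h had 1, and Ces2f and Ces5a had 0. Of the 5 tested, 2 were called lower with esculetin and 0 higher, where 1.76% of all genes were called lower, and the median log2 fold change was -0.14.

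Both called genes, Ces2b and Ces4a, were of low level. Ces2b measured 4.60, 13.9 and 11.4 CPM in the vehicle libraries. In the esculetin libraries it measured 1.34, 3.20 and 5.17 CPM. Vehicle library 1 lay below the highest esculetin library, so the groups overlapped. This gave a log2 fold change of -1.62 with a standard error of 0.47 (adjusted p = 0.242, edgeR). Ces4a measured 7.42, 17.8 and 21.4 CPM with vehicle and 4.88, 6.89 and 5.76 CPM with esculetin. Its groups did not overlap, and vehicle library 1 was again the lowest of its group. This gave a log2 fold change of -1.41 with a standard error of 0.33 (adjusted p = 0.170, edgeR). Vehicle library 1, the highest vehicle library for all 6 Ces1 members, was the lowest vehicle library for Ces2b and Ces4a, and also for Ces2c, Ces2g, Ces3a and Ces3b. It was the lowest for Ces2a too, but that gene was nearly constant, at 186.8 to 188.3 CPM. For Ces2e and Ces2h it was not the lowest. The other 3 tested genes of this list were not called. Ces2c, a triacylglycerol hydrolase of the Ces2 family, had a log2 fold change of -0.14 (SE 0.27), which ran from -0.48 without esculetin library 2 to 0.08 without esculetin library 1. Ces2g had 0.06 (SE 0.093), which turned to -0.03 without vehicle library 1. Ces2h, with 62 reads in all, had 0.22 (SE 0.49).

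Promoter sequence was looked at because neighbouring members differed in their values. RefSeq promoters, on GRCm38.p6, were matched for 7 of the 10 members, Ces1b, Ces1c, Ces1e, Ces1g, Ces2a, Ces2e and Ces3b. The 250 bases before the start are printed for Ces1g and for the pair Ces1b and Ces1c, whose promoters share a run of 58 bases. Their log2 fold changes were 0.55 and 0.13, and the difference between these was not tested. Ces1b has a promoter 2 that is not printed (chr8:93080018-93080267). Its match to the motif below lies at -136 from the start, against -213 in the printed promoter. Capitals mark a match to TTGCNNAA, the core recognised by C/EBP factors.
Ces1g, chr8:93337210-93337459, minus strand: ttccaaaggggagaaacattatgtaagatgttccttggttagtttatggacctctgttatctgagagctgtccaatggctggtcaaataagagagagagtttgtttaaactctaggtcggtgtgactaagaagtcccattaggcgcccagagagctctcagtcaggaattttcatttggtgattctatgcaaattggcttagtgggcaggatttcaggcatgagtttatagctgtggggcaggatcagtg
Ces1b, chr8:93079941-93080190, minus strand: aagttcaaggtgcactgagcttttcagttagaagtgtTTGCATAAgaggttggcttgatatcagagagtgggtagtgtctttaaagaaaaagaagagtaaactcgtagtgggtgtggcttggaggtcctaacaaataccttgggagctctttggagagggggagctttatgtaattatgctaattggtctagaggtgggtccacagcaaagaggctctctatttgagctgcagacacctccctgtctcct
Ces1c, chr8:93131284-93131533, minus strand: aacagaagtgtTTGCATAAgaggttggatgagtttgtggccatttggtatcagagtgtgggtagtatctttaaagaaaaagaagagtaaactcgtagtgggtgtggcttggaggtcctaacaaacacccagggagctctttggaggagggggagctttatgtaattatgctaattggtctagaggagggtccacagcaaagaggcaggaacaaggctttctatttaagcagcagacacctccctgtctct
The motifs TTGCNNAA, TGACNNNGC (the core of the antioxidant response element), GCGTG (the core of the xenobiotic response element) and the direct repeat of AGGTCA with a spacer of 1 base (bound by nuclear receptors) were searched on both strands. TTGCNNAA was found in the promoters of Ces1b, Ces1c, Ces2a and Ces2e and in 9.56% of 32851 mouse promoters. Its letters were not in the windows of Ces1g, Ces1e and Ces3b. TGACNNNGC (10.2% of all promoters), GCGTG (28.2%) and the direct repeat (0.0335%) matched none of the 7, so no matches of different motifs overlapped. A match is a string of letters and not a site that was shown to be bound.

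Genes that act beside the carboxylesterases were read as 3 further lists, again chosen with earlier results known. Of 20 other esterase and lipid hydrolase genes, 19 were tested and 0 were called, with a median log2 fold change of 0.06. With the p-value threshold alone, 6 of the 19 were higher and 0 lower, where 6.53% and 5.32% of all genes were. The 4 with the smallest p-values were Afmid, the formamidase of tryptophan breakdown (0.44, adjusted p = 0.204), Bche, butyrylcholinesterase (0.37, adjusted p = 0.252), Lipc, hepatic lipase (0.25, adjusted p = 0.293), and Esd, S-formylglutathione hydrolase (0.23, adjusted p = 0.325), all as log2 fold changes by edgeR. Their groups did not overlap. Aadac, arylacetamide deacetylase, the list's most abundant gene per length, had a log2 fold change of -0.03 (SE 0.079). It measured 879 ± 22.9 CPM with vehicle and 860 ± 55.3 CPM with esculetin (SD, n = 3 each).

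Of 11 genes for the assembly of VLDL, all were tested, 0 were called (3.13% of all genes were) and the median log2 fold change was 0.07. Apoc3, which slows the clearance of triacylglycerol-rich lipoproteins, went from 1048 ± 12.7 CPM to 1346 ± 98.0 CPM (SD, n = 3 each) without overlap, and it was the only gene of the list to pass the p-value threshold, which 11.9% of all genes passed (log2 fold change 0.36, adjusted p = 0.152 by edgeR and 0.00632 by DESeq2). Sar1b, a small GTPase of the vesicles that carry lipoproteins, had 0.14 (adjusted p = 0.505), Tm6sf2 had 0.19 (adjusted p = 0.716) and Soat2, which esterifies cholesterol, had -0.19 (adjusted p = 0.637). Apob, the structural protein of VLDL and the list's most abundant gene per length, had -0.07 (adjusted p = 0.813).

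Of 14 transcription factor genes known as regulators of liver drug and lipid metabolism, 2 were called higher and 0 lower, where 1.37% of all genes were called higher. Nr0b2, the nuclear receptor SHP that represses other receptors, went from 16.1 ± 4.75 to 31.2 ± 2.49 CPM (SD, n = 3 each; log2 fold change 0.95, SE 0.18, adjusted p = 0.132, edgeR). Cebpb, the C/EBP beta factor, went from 30.3 ± 5.36 to 45.8 ± 7.01 CPM (log2 fold change 0.60, SE 0.14, adjusted p = 0.175, edgeR), and it was no longer called without vehicle library 1 or without esculetin library 1, or when counts were scaled by their totals. Nr1i2, the pregnane X receptor, and Nr1i3, the constitutive androstane receptor, had log2 fold changes of 0.30 (adjusted p = 0.172) and 0.39 (adjusted p = 0.345) with groups that did not overlap and were not called. Without vehicle library 3 the value of Nr1i3 was 0.23. With DESeq2 the adjusted p-values were 6.42e-05 for Nr0b2 and 0.00984 for Cebpb. Hnf4a, a master factor of the hepatocyte, had the highest level per length of the list with esculetin, and Cebpa, the C/EBP alpha factor, had it with vehicle (103 CPM per kilobase against 99.7 for Hnf4a). Their log2 fold changes were 0.11 (adjusted p = 0.737) and -0.01 (adjusted p = 0.984) by edgeR. Levels of these genes are from the same libraries as the members and say nothing of which factor acts on which gene.

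**Figure D4:**
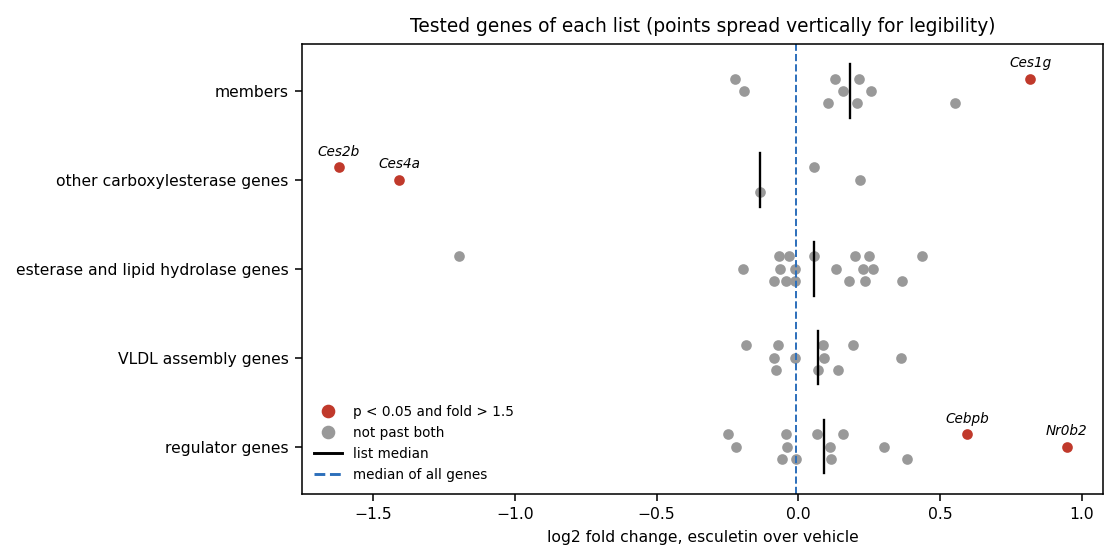
Log2 fold change of esculetin over vehicle (x axis) for the tested genes of each list, 1 point per gene, spread vertically for legibility. Red points passed both thresholds, black lines are list medians and the dashed line is the median of all 14433 genes (-0.01); the members' points lie between -0.22 and 0.82 and the red one is Ces1g, whose difference chose the family.

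The genes whose pattern over the 6 libraries was nearest to that of Ces1g were Rdh16f2, Gstm2 and Mgmt. Likeness was the root-mean-square distance between log2 CPM values centred on each gene's mean, among 7226 genes of at least 10 CPM outside the members. The distances were 0.085, 0.11 and 0.12. Rdh16f2 measured 98.9, 76.8 and 79.0 CPM with vehicle and 156.0, 133.1 and 146.9 CPM with esculetin. It belongs to the retinol dehydrogenases, Gstm2 to the mu-class glutathione transferases, and Mgmt encodes a DNA repair methyltransferase. Since Ces1g was chosen for its difference between the groups, genes that resemble it differ between the groups by construction.

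Markers of other cell types were read beside these values. Of 39 markers of 8 cell types other than hepatocytes, 32 were tested, 4 were called higher (Des, Cd79a, Cfd and Hba-a2) and 1 lower (Spp1), where 1.37% of all genes were called higher and 1.76% lower. Each of the 4 higher markers had a mean under 3 CPM in both groups, and Spp1 went from 56.0 to 33.4 CPM. The summed Kupffer cell and macrophage markers spanned 261 to 356 CPM with vehicle and 272 to 280 CPM with esculetin. The pancreas markers Cpb1, Prss2 and Pnlip and the adipocyte marker Lep were at 0 in every library. The summed pancreas markers, here those of Cela1, spanned 17.9 to 25.1 CPM with vehicle and 15.8 to 25.7 CPM with esculetin. The summed adipocyte markers were low, at 0 to 0.613 CPM with vehicle and 0.894 to 1.19 CPM with esculetin, without overlap. The mitochondrial share of counts was 7.31% to 7.62% in the vehicle libraries and 6.87% to 7.26% in the esculetin libraries, without overlap. The part of this share and of these cell types in the values of the carboxylesterases was not tested.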

How the data were processed

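RNA of 6 mouse liver libraries (3 vehicle, 3 esculetin, each from 2 mice) was extracted with Trizol, made into libraries with the NEBNext Ultra kit and sequenced as 150-base read pairs. The authors aligned the reads with HISAT2 2.2.1 to GRCm39 (the submitters' notes also list mm10), ran featureCounts and deposited raw counts per gene, which are whole numbers and not normalized. Annotation release, strand setting and the handling of multiply mapped reads are not given in the sources used here.

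The 6 columns of counts were mapped to samples by their names. Of 55357 identifiers, 54749 were found in GENCODE vM39. Genes were filtered with filterByExpr, scaled with TMM (factors 0.979 to 1.02) and tested with edgeR 4.0.16 (quasi-likelihood, R 4.3.3), with the Benjamini-Hochberg adjustment over 14433 genes. Standard errors were derived from the fold change and its F statistic. Nothing states that the libraries of a group came from separate experiments, so p-values measure the spread between pools of mice. The biological coefficient of variation was 14.63%. No library was a copy of another of its group, since the chi-square per gene between replicates was at least 24.19.

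The members and all gene lists were chosen with earlier results of these data known. Genes named singly are all members, the tested other carboxylesterase genes, up to 4 genes of smallest p-value and the most abundant gene per length of each list (for the regulators, Hnf4a with esculetin and Cebpa with vehicle), and the 3 nearest to Ces1g. Pnpla3 and the cell type markers were named after their values were seen. Coding features came from the canonical GENCODE transcripts, in place of the protein features that had been planned, and pairwise identity from alignments of coding sequence. Promoters came from RefSeq, and those of Ces1d, Ces1f and Ces3a were not analysed here. Alternatives were DESeq2 1.42.0, limma 3.58.1 (voom or trend), scaling by totals or by the size factors of DESeq2, no count filter or a minimum of 10 per library, omission of each library, a replicate block, no fold threshold, an adjusted p-value under 0.05, and the longest annotated transcript as length.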

Additional observations from a re-analysis of the deposited data

How the results depend on the processing

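The difference of Ces1g chose the family, so its own call is no evidence and is counted here only for completeness. With it, 1 member was called under each tool, scaling and count filter run with all 6 libraries, and the other 9 members added 0. Leaving out each library gave 1 to 2, with Ces1b added without vehicle library 1 or esculetin library 1, and no fold threshold gave 3. Over the settings with all libraries, the adjusted p-value of Ces1b ran from 4.84e-05 to 0.273. The other carboxylesterase genes kept 2 calls, Ces2b and Ces4a, throughout, leaving out each library included (2 to 2), except that 0 had an adjusted p-value under 0.05 by edgeR with the filter. Over the other settings with all libraries, the adjusted p-value ran from 4.38e-08 to 0.274 for Ces2b and from 1.26e-09 to 0.252 for Ces4a. The esterase list went from 0 to 1 call (Pnpla3, lower) with no filter, to 0 to 1 when leaving out libraries (1 without vehicle library 3) and to 6 with no fold threshold. The VLDL list stayed at 0 (0 to 0 when leaving out libraries) and went to 1 with no fold threshold. The regulators went from 2 to 1 with total counts (Nr0b2), 1 to 2 when leaving out libraries, 4 with no fold threshold and 0 with an adjusted p-value under 0.05 by edgeR with the filter. Over the settings with all libraries, the adjusted p-value ran from 4.21e-09 to 0.152 for Nr0b2 and from 5.67e-05 to 0.292 for Cebpb, with the lowest value of Ces1b, Ces2b, Ces4a, Nr0b2 and Cebpb each reached without the count filter. Without that filter the adjusted p-values of Apoc3 (0.00505), Bche (0.0132), Afmid (0.0314) and Nr1i3 (0.0482) were also under 0.05, at fold changes under 1.5. The log2 fold change of Ces3b reversed to 0.0203 without vehicle library 3, and leaving out each library gave -0.334 to 0.0203. With the longest transcript as length, 6 of 10 members kept their rank in either group. The causes of these shifts were not tested. Over all genes, deviations of same-numbered libraries correlated at -0.0689, -0.01076 and 0.002744, which cannot exclude a pairing that touches single genes. In replicate 1, for example, Ces2b deviated by -1.44 (log2) with vehicle and -1.56 with esculetin, but Ces1d by 0.79 and -0.14. With the replicate number as a block, 0 of the 9 members other than Ces1g were called. The log2 fold change of Ces1b was then 0.58. The block moved the unadjusted p-value (edgeR) from 0.0064 to 6.76e-05 for Ces2b and from 0.282 to 0.0986 for Ces3b. For Ces1b that p-value went from 0.00292 to 0.00380. The lowest count of a member was 1873, and Ces2h was tested on 62 reads.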
